A study of Homo sapiens with 8 samples.

Results

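The genes described here encode the homologous recombination and Fanconi anaemia repair machinery. They are 39 members of a named list, chosen by gene symbol from the 66206 gene rows of each table of A549 cells, a human lung adenocarcinoma line. The list holds 4 checkpoint kinases, 24 recombination genes and 11 Fanconi genes, and all 39 were found in both tables. RNA was sequenced in 8 libraries of 4 groups. A pair of libraries came from cells transfected with 25 pmol of LNA gapmer directed at LY6K-AS, a long non-coding RNA, and a pair from cells given 25 pmol of a control gapmer, called scramble LNA here. Likewise 2 libraries came from cells given 40 pmol of siRNA against YWHAG, which encodes the gamma form of the 14-3-3 adaptor proteins, and 2 from cells given 40 pmol of a scramble siRNA. A gapmer is an antisense oligonucleotide through which RNase H cuts its target RNA. All 4 groups are the same line, with no other agent or genotype named, all were transfected with a lipid reagent, and no harvest time is stated. Titles of the LY6K-AS knockdown libraries hold LNA1 and LNA3, and those of the YWHAG knockdown hold si1 and si2, so whether 1 oligonucleotide or several were used for a target is not settled by the labels. No label states that the replicates are independent cultures; the p-values therefore describe the spread among these libraries, part or all of which may be technical.

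Homologous recombination repairs broken or stalled DNA in S and G2 phase from the intact sister chromatid: the kinases ATM and ATR signal the lesion, nucleases trim the broken ends, BRCA1 and BRCA2 complexes prepare the trimmed end for strand invasion, and the joined molecules are then dissolved by the BLM complex or cut by structure-specific nucleases. The Fanconi pathway starts the repair of DNA crosslinks: the core complex and the ubiquitin-conjugating enzyme UBE2T attach ubiquitin to the FANCD2-FANCI pair, which recruits nucleases and recombination proteins. Many of these genes are transcribed most strongly in S phase, in part through E2F transcription factors, so in a culture their RNA is known to follow the share of cycling cells.

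Levels are given as RPKM (reads per kilobase of merged exons and per M reads, where M is 1e6), and changes as differences of log2(RPKM + 1) between group means, which understate the change of low genes. Each knockdown was set against its own control with limma, a linear model that pools the spread over genes, and p-values were adjusted by the Benjamini-Hochberg method over all genes tested with a threshold of 0.05. The depth scaling rested on 26.2 M to 34.6 M reads per library, and a member had between 76 reads (FANCB) and 7671 reads (FANCI) in a library. Mitochondrially encoded genes took 8.27% and 4.07% of reads in the LY6K-AS knockdown libraries, against 8.33% and 6.35% in scramble LNA, and 13.7% and 17.9% in the YWHAG knockdown libraries, against 15.0% and 17.9% in scramble siRNA. LNCOC1, the antisense gene annotated at the LY6K locus and used here to check the knockdown, had 11 reads in the LY6K-AS knockdown libraries together and 51 in scramble LNA, a ratio per read of depth of 0.244 with an exact Poisson 95% interval of 0.115 to 0.474 that covers counting error only. YWHAG had 13.5 and 4.91 RPKM after its knockdown, against 163 and 158 RPKM in scramble siRNA. Of the 10 epithelial and lung markers the keratins KRT7, KRT8 and KRT18 were high in every library, while NKX2-1, SFTPB and SFTPC, which mark alveolar cells, were at or near 0. The summed level of these 10 markers was 1506 and 1524 RPKM in the LY6K-AS knockdown libraries, against 1275 and 1286 RPKM in scramble LNA, and 1167 and 1222 RPKM in the YWHAG knockdown libraries, against 853.1 and 939.5 RPKM in scramble siRNA. The keratins make up most of these sums, and single markers did not share 1 direction. KRT19 had 86.9 and 120 RPKM in the LY6K-AS knockdown libraries, against 37.4 and 39.3 RPKM in scramble LNA, a log2 change of 1.39 ± 0.18 (limma adjusted p = 0.103), beside 0.39 for KRT8 and −0.24 for the adhesion molecule EPCAM. CDH1, which encodes E-cadherin, had 10.9 and 13.5 RPKM in the YWHAG knockdown libraries, against 4.63 and 4.42 RPKM in scramble siRNA, a log2 change of 1.25 ± 0.15 (limma adjusted p = 0.130), beside 0.77 for KRT7 and −0.70 for EPCAM. Of the immune, fibroblast and endothelial markers only CD14 and COL1A1 passed the expression filter (log2 changes of 0.20 and −0.13 after LY6K-AS knockdown, −0.78 and −0.64 after YWHAG knockdown), CD3E had no read in any library, and the summed endothelial level stayed at or below 0.0800 RPKM.

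Every member was at 0.654 RPKM or more in each library, so all 39 passed the filter of 0.5 RPKM in 2 of 4 libraries whichever group was counted. In scramble LNA the 2 highest members were FANCI, with 24.5 and 24.3 RPKM, and UBE2T, with 21.2 and 20.1 RPKM, and the gap between them was larger than the spread within each pair. After LY6K-AS knockdown FANCG stood highest with 16.2 and 15.3 RPKM, above FANCI with 14.0 and 11.0 RPKM. The lowest members after LY6K-AS knockdown were BRCA2, RAD54B and FANCM, whose means of 0.869 ± 0.255, 0.903 ± 0.157 and 0.913 ± 0.367 RPKM (SD, n = 2) did not differ beyond their spread. Of the 39 genes, 25 overlap a gene on the opposite strand, and the sources used here do not give whether counting used the strand, so reads in such overlaps cannot be told apart. Pseudogenes of CHEK2, FANCD2, MRE11, RBBP8 and RAD51AP1 are annotated elsewhere in the genome, which makes the values of these 5 genes less certain.

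After LY6K-AS knockdown, the recombination and Fanconi genes had lower mean RNA levels in nearly every role. The smallest changes were those of the kinases ATM and CHEK2, the nuclease genes SLX4 and MUS81, and FANCE, and FANCF was higher. The members' median log2 change was −0.56, beside 0.00 over all 14663 genes tested. In the mean 36 members were lower and 3 higher, where 49.7% of all genes tested were lower. For 34 members both LY6K-AS knockdown libraries lay below both scramble LNA libraries, against 30.5% of all genes tested, and for 1 member, FANCF, both lay above, against 31.5%. The groups overlapped for CHEK2, SLX4, MUS81 and FANCE. No member passed at the adjusted threshold, nor did any of the 14663 genes (0.0%), and the smallest adjusted p was 0.103. At an unadjusted limma p under 0.05, 27 members were lower, against 11.7% of all genes tested, and 0 were higher, against 13.6%. With LNA values as deposited, not rescaled to exon length, 23 members passed the filter, their median was −0.27 and 16 were lower at an unadjusted p under 0.05, beside 1128 of all 9879 genes then tested. The count at an unadjusted p also depended on the controls: it was 13 without scramble LNA library 1 and 14 without library 2, where 2.42% and 2.48% of all genes were lower at that p. With LY6K-AS knockdown library 1 left out, 31 members passed the adjusted threshold among 7734 genes (52.7%), and with library 2 left out 30 members passed among 4348 genes (29.7%), in fits that assume the lone knockdown library to vary as the controls do. When all 8 libraries shared 1 estimate of the spread, 64 of 12865 genes passed (0.497%), and 2 of them were members, RMI2 with a limma adjusted p of 0.0451 and RAD51AP1 with 0.0496.

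**Figure D1:**
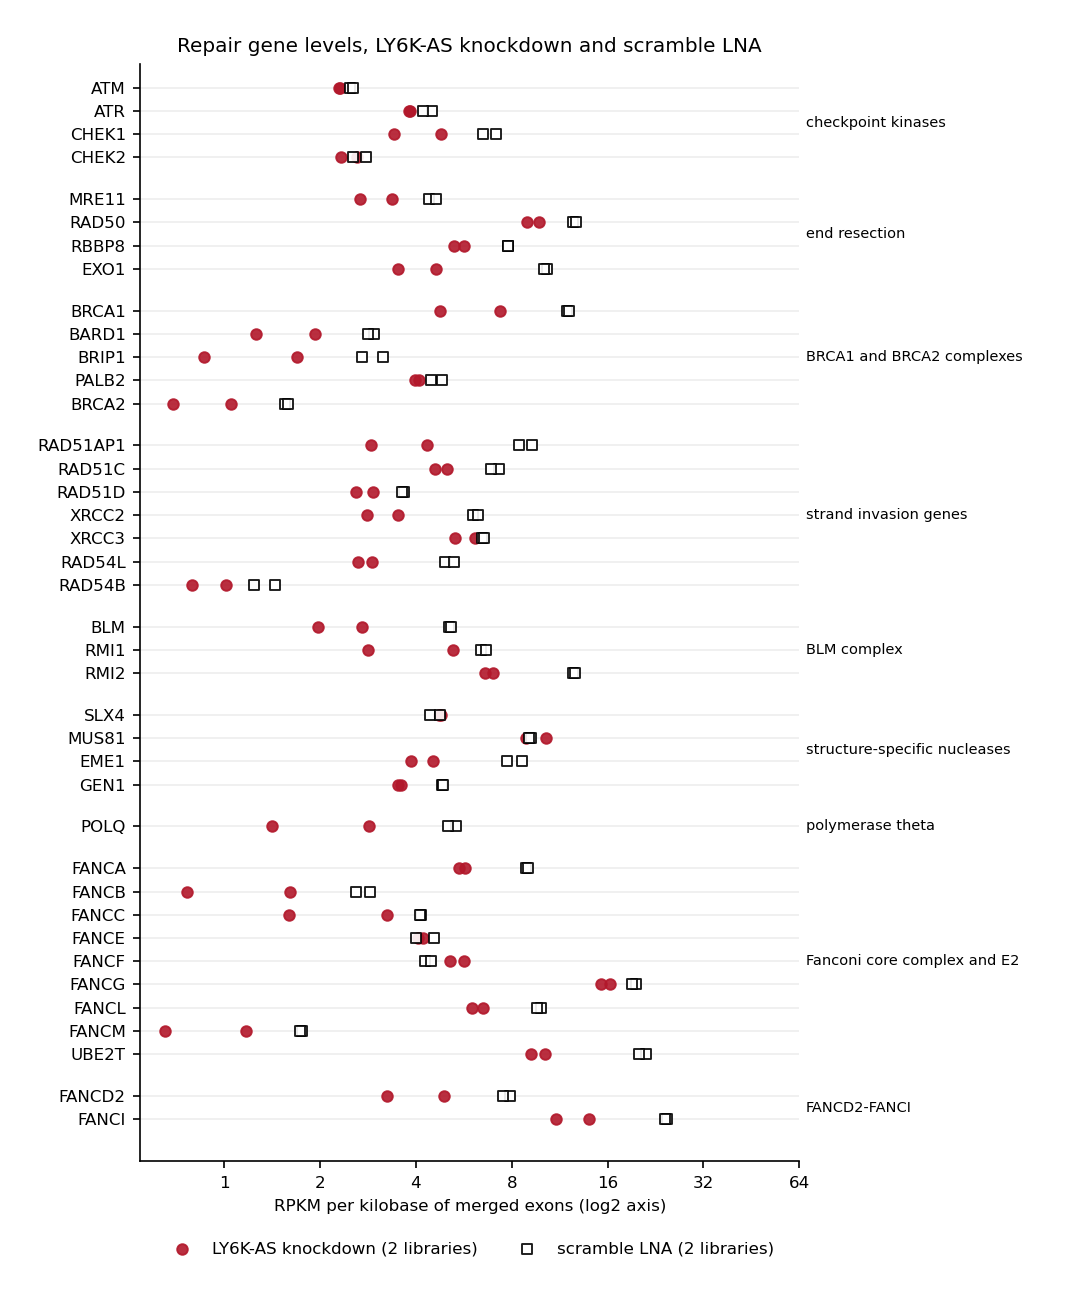
RPKM per kilobase of merged exons (log2 axis) of the 39 repair genes, by role, in the 2 LY6K-AS knockdown libraries (filled circles) and the 2 scramble LNA libraries (open squares). Both knockdown points lie left of both control points for 34 genes, right of them for FANCF, and among them for CHEK2, SLX4, MUS81 and FANCE.

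Several measures moved with this comparison. LY6K-AS knockdown library 2 was lower than library 1 for 32 of the 39 members, with medians of −0.40 in library 1 and −0.62 in library 2 relative to the control mean. All 17 proliferation markers listed were lower, each at an unadjusted limma p under 0.05, where 11.7% of all genes tested were. Their medians were −0.61 and −0.97 in the same libraries. Topoisomerase TOP2A, for one, had 56.7 and 42.0 RPKM in the LY6K-AS knockdown libraries, against 126 and 128 RPKM in scramble LNA. The log2 changes of the proliferation antigen MKI67 and of cyclin A2, CCNA2, were −1.12 ± 0.14 and −1.22 ± 0.19. In RNA from a whole culture, fewer cells in the stage that expresses these genes and less RNA per cell cannot be told apart, and the part of proliferation in the members' levels was not tested. Across all genes tested the log2 change went with the GC content of the transcript (Spearman's rho 0.54 across genes, which are not independent replicates and share the same libraries). The members are GC-poor, with a median of 42.4% and a range of 36.3% to 61.1%, against a median of 49.8% over all genes tested, and among the 39 the same rho was 0.21. With the GC trend of each library removed, the members' median was −0.43. At an unadjusted limma p under 0.05, 27 members were then lower, beside 1496 of all 14663 genes. The signs of 5 members with small changes flipped in that setting, namely ATM, ATR, CHEK2, SLX4 and MUS81. Counting these, 17 members moved by over 1.5 times in that setting: MRE11, RAD50, RBBP8, BRCA2, RAD51C, RAD54B, GEN1 and FANCM came to between −0.35 and −0.12, PALB2 to −0.0069, and FANCE, FANCG and XRCC3 to −0.24, −0.43 and −0.44. Scaled to reads outside mitochondrial genes the median was −0.58.

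Promoter sequences of the members at both ends of the response to LY6K-AS knockdown are shown because the S-phase transcription of such genes is known to run in part through E2F sites in their promoters. The 4 members with the smallest p were UBE2T, RMI2, EXO1 and EME1, and the 2 with the largest were FANCE and SLX4; no window was matched for RMI2. Each sequence is the 250 bases before the RefSeq start in GRCh38.p14, read 5′ to 3′ on the gene's strand: UBE2T at chr1:202341937-202342186 (minus), EXO1 at chr1:241847954-241848203 (plus), EME1 at chr17:50372979-50373228 (plus), FANCE at chr6:35452088-35452337 (plus) and SLX4 at chr16:3611607-3611856 (minus). Capitals mark the letters searched, on both strands. The E2F letters were TTCGCGC in one form, TTGGCGC in another form and TTCCCGC in the last form. The letters of the cell-cycle homology region (CHR) were TTTGAA in one form and TTCGAA in the other form. The third motif was CCAAT, which can share bases with TTGGCGC read on the opposite strand.
UBE2T: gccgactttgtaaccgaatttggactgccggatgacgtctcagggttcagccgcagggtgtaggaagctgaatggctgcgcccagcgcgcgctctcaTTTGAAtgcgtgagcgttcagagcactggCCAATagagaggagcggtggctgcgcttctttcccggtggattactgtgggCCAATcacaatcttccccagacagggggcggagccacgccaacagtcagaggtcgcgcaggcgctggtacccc
EXO1: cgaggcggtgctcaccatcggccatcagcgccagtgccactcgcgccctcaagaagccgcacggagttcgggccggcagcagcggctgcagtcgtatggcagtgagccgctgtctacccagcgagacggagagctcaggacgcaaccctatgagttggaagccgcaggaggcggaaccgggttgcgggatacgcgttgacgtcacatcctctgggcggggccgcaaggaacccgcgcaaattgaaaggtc
EME1: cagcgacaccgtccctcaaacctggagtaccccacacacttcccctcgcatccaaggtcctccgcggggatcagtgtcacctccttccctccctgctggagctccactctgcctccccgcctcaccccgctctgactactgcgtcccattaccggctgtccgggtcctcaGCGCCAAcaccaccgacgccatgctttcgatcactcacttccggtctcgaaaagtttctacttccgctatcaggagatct
FANCE: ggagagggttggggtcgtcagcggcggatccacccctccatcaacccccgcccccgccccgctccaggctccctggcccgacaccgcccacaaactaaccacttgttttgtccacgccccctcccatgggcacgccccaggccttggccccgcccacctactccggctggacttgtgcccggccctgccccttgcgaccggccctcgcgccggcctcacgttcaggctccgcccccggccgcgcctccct
SLX4: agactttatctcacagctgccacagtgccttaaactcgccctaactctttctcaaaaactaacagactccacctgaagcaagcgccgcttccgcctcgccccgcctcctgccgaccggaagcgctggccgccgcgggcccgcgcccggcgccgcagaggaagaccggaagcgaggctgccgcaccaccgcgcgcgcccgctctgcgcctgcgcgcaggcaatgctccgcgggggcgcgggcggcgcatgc
The UBE2T window held 1 CHR match and 2 CCAAT matches, and the EME1 window held 1 E2F match on the opposite strand. None of the letters searched were in the windows of EXO1, FANCE and SLX4. EXO1 has 2 RefSeq starts, and its window began at 241847954, just before the annotated gene start of 241847967. Most of that window therefore lay inside the annotated gene, and the bases farther upstream were not searched. A window was matched for 36 of the 39 members; for the 11 with several RefSeq starts the first listed was used. E2F letters were in 8 of these 36 windows (22.2%), against 9.51% of the windows of 27305 genes. CCAAT was in 16 (44.4%), against 33.0%, and CHR letters were in 5 (13.9%), against 14.6%. Those 27305 genes were all genes with a window, not only the genes tested here. They were not matched to the members in expression or GC content. The median log2 change after LY6K-AS knockdown was −0.66 for the 8 members with E2F letters, within a range of −1.11 to −0.29, and −0.47 for the 28 without, within a range of −1.16 to 0.25, so the ranges overlapped. The value of −1.16 was that of EXO1, for which the bases before the annotated gene start were mostly not searched. For CHR letters the median was −0.81 for the 5 members with them and −0.48 for the 31 without. For CCAAT it was −0.56 for the 16 with it and −0.52 for the 20 without. The ranges overlapped for these motifs as well. A match of letters is a description of the sequence, not a site of binding.

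The checkpoint kinases divided into CHEK1 and the rest. CHEK1 (ENSG00000149554.12), the kinase that ATR activates at stalled forks, had 4.81 and 3.41 RPKM in the LY6K-AS knockdown libraries, against 7.13 and 6.52 RPKM in scramble LNA. Both knockdown libraries lay below both controls, with library 2 the lower, and the log2 change was −0.63 ± 0.17 (SE; limma adjusted p = 0.136). ATM, the kinase that responds to double-strand breaks, had 2.31 and 2.30 RPKM, against 2.48 and 2.55 RPKM in scramble LNA. ATR was at 3.83 and 3.81 RPKM, against 4.48 and 4.21 RPKM. Both kinases were slightly lower without overlap, with log2 changes of −0.09 ± 0.09 for ATM and −0.15 ± 0.09 for ATR. CHEK2, which ATM activates, had 2.33 and 2.62 RPKM in the LY6K-AS knockdown libraries and 2.53 and 2.79 RPKM in scramble LNA, so its groups overlapped.

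The 4 end resection genes were all lower after LY6K-AS knockdown, by 0.40 to 1.16 on the log2 scale. Of all genes tested 49.7% were lower in the mean, and 30.5% had both knockdown libraries below both controls. EXO1 (ENSG00000174371.16, chromosome 1, 241847967 to 241895148, plus strand, GENCODE 29 on hg38), the exonuclease of long-range resection, had 4.61 and 3.50 RPKM in the LY6K-AS knockdown libraries, against 10.3 and 10.1 RPKM in scramble LNA. Its knockdown libraries lay well below the controls, the mean was 2.52-fold higher in scramble LNA, and the log2 change of −1.16 ± 0.14 was the most negative among the 39 members (limma adjusted p = 0.103). RBBP8, which encodes CtIP and starts resection, had 5.67 and 5.29 RPKM, against 7.80 RPKM in both scramble LNA libraries. MRE11 had 3.36 and 2.67 RPKM in the knockdown libraries, against 4.38 and 4.62 RPKM. RAD50, the partner of MRE11 in the end-binding complex, had 9.71 and 8.93 RPKM, against 12.5 and 12.7 RPKM. For these 3 genes the groups did not overlap, and the changes, between −0.46 and −0.40, were all smaller than that of EXO1.

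BRCA1 and the genes of its complexes followed. BRCA1, the scaffold that opens the recombination pathway, had 7.36 and 4.78 RPKM in the LY6K-AS knockdown libraries, against 12.0 and 12.1 RPKM in scramble LNA. The knockdown libraries differed from each other by more than the controls did, and both lay below them, with a log2 change of −0.91 ± 0.20 (limma adjusted p = 0.114). BRIP1, the helicase that binds BRCA1, was at 1.69 and 0.863 RPKM, against 3.16 and 2.72 RPKM. BARD1, the ubiquitin ligase partner of BRCA1, was at 1.93 and 1.26 RPKM, against 2.96 and 2.82 RPKM. In both genes LY6K-AS knockdown library 2 was the lower of the pair. BRCA2, which acts before strand invasion, had 1.05 and 0.689 RPKM, against 1.55 and 1.59 RPKM in scramble LNA. PALB2, the bridge between BRCA1 and BRCA2, had 4.10 and 3.97 RPKM, against 4.82 and 4.45 RPKM, with a log2 change of −0.16 ± 0.09 that was the smallest of these 5 genes.

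Among the genes that assist strand invasion, all 7 were lower after LY6K-AS knockdown and none overlapped its controls. Of all genes tested 49.7% were lower in the mean, and 30.5% had both knockdown libraries below both controls. RAD51AP1 (ENSG00000111247.14, chromosome 12, 4538798 to 4560048, plus strand), which stimulates strand invasion, had 4.33 and 2.90 RPKM in the LY6K-AS knockdown libraries, against 8.45 and 9.28 RPKM in scramble LNA. Both knockdown libraries were low, the mean was 2.45-fold higher in scramble LNA, and the log2 change was −1.11 ± 0.18 (limma adjusted p = 0.103). XRCC2, which also promotes strand invasion, had 3.51 and 2.80 RPKM, against 6.04 and 6.28 RPKM. RAD54L, a DNA translocase, had 2.91 and 2.64 RPKM, against 4.92 and 5.26 RPKM. RAD51C was at 5.02 and 4.61 RPKM, against 7.28 and 6.89 RPKM in scramble LNA. The changes of these 3 genes were −0.79 ± 0.12, −0.69 ± 0.10 and −0.48 ± 0.10. The XRCC2 knockdown libraries stood farther apart than those of RAD54L and RAD51C. RAD51D (−0.30) and RAD54B (−0.30) were lower by less, and XRCC3 (−0.16) by the least.

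The BLM complex, which dissolves double Holliday junctions without crossover, was lower in all 3 of its members here, where 49.7% of all genes tested were lower. RMI2 (ENSG00000175643.8, chromosome 16, plus strand) had 6.59 and 6.98 RPKM in the LY6K-AS knockdown libraries, against 12.5 and 12.7 RPKM in scramble LNA. The pairs were tight and far apart, with a log2 change of −0.80 ± 0.09. GENCODE 29 holds a later version of this gene, ENSG00000175643.9, at 11249619 to 11381662, a span that also contains SOCS1 and the protamine genes on the opposite strand; the counted version had a shorter span of 102 kb, so whether it covers them is not known. BLM, the helicase, had 2.71 and 1.97 RPKM, against 5.09 and 5.14 RPKM, a log2 change of −0.88 ± 0.14. RMI1 had 5.24 and 2.83 RPKM, against 6.42 and 6.65 RPKM, and its knockdown libraries stood farther apart than those of BLM or RMI2.

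The structure-specific nucleases, which cut joined DNA molecules, did not share 1 direction. EME1 (ENSG00000154920.14, chromosome 17, 50373220 to 50381483, plus strand), the partner subunit of MUS81, had 4.53 and 3.86 RPKM in the LY6K-AS knockdown libraries, against 8.62 and 7.72 RPKM in scramble LNA. MUS81, the catalytic subunit, had 8.88 and 10.2 RPKM, against 9.18 and 9.05 RPKM. The 2 subunits of the same nuclease thus stood apart: EME1 was lower in both libraries (log2 change −0.82 ± 0.12), while the MUS81 groups overlapped (0.06 ± 0.11). SLX4, the scaffold that holds several nucleases, had 4.74 and 4.80 RPKM, against 4.42 and 4.76 RPKM, and its groups also overlapped. GEN1, a Holliday junction resolvase, had 3.60 and 3.52 RPKM, against 4.83 and 4.87 RPKM in scramble LNA. POLQ, the polymerase of microhomology-mediated end joining, which competes with recombination, had 2.85 and 1.41 RPKM, against 5.35 and 5.05 RPKM. POLQ was lower in both knockdown libraries and lowest in library 2, with a log2 change of −1.02 ± 0.25 (limma adjusted p = 0.125).

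In the Fanconi pathway, 10 of 11 genes were lower in the mean after LY6K-AS knockdown, where 49.7% of all genes tested were lower. At an unadjusted limma p under 0.05, 8 of the 11 were lower, against 11.7% of all genes. UBE2T (ENSG00000077152.9, which GENCODE 29 holds as ENSG00000077152.10 on chromosome 1, 202331657 to 202341980, minus strand), the conjugating enzyme of the pathway, had 9.22 and 10.2 RPKM in the LY6K-AS knockdown libraries, against 21.2 and 20.1 RPKM in scramble LNA. Its pairs did not overlap, the mean was 2.13-fold higher in scramble LNA, and its log2 change of −1.02 ± 0.10 had the smallest unadjusted p among the members (limma adjusted p = 0.103). FANCL (ENSG00000115392.11), the ubiquitin ligase subunit, had 6.02 and 6.52 RPKM, against 9.86 and 9.60 RPKM. FANCD2, one substrate of the ligase, had 4.89 and 3.25 RPKM, against 7.88 and 7.51 RPKM. FANCI (ENSG00000140525.17, chromosome 15, 89243949 to 89317261, plus strand), the other substrate, had 14.0 and 11.0 RPKM, against 24.5 and 24.3 RPKM in scramble LNA. The enzyme, the ligase and both substrates were therefore lower in each knockdown library, with changes of −0.56 ± 0.09 for FANCL, −0.80 ± 0.18 for FANCD2 and −0.92 ± 0.14 for FANCI. FANCI overlaps POLG on the opposite strand.

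The rest of the core complex ranged from clearly lower to higher. FANCB, a core subunit that works with FANCL, had 1.60 and 0.765 RPKM in the LY6K-AS knockdown libraries, against 2.88 and 2.60 RPKM in scramble LNA. FANCA had 5.72 and 5.46 RPKM, against 8.89 and 9.02 RPKM. FANCM, the translocase that brings the core complex to DNA, had 1.17 and 0.654 RPKM, against 1.75 and 1.72 RPKM. FANCA was even between its knockdown libraries, while FANCB and FANCM were lowest in library 2. FANCC had 3.24 and 1.60 RPKM, against 4.14 and 4.13 RPKM, and the distance between its knockdown libraries was larger than the distance of library 1 from the controls. FANCG, which pairs with FANCA, had 16.2 and 15.3 RPKM, against 19.7 and 19.1 RPKM, and was lower by less (−0.29 ± 0.09). FANCE had 4.20 and 4.07 RPKM, against 4.01 and 4.56 RPKM, and its groups overlapped. FANCF, the adaptor that links core subunits, was the 1 member with both knockdown libraries above both controls, at 5.65 and 5.12 RPKM, against 4.28 and 4.46 RPKM, a log2 change of 0.25 ± 0.10 (limma adjusted p = 0.213).

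After YWHAG knockdown the same genes stood closer to their controls, and the 2 knockdown libraries did not move alike. The members' median log2 change was −0.18, beside −0.05 over all 13903 genes tested, with medians of −0.35 in YWHAG knockdown library 1 and −0.01 in library 2. Library 1 was the lower of the pair for 31 of the 39 members. In the mean 33 members were lower, where 57.6% of all genes tested were lower. Both knockdown libraries lay below both scramble siRNA libraries for 13 members, against 30.8% of all genes, and above them for 3, against 20.4%. No member and no gene passed at the adjusted limma threshold (0.0%), and the smallest adjusted p over all genes was 0.130. At an unadjusted p under 0.05, 2 members were lower, against 8.9% of all genes tested, and 1 was higher, against 7.51%. That count of 2 rested on single libraries: it was 0 without scramble siRNA library 2 or library 3, where 1.63% and 1.99% of all genes were lower at that p, and 19 without YWHAG knockdown library 2, where 18.9% were. In the fit over all 8 libraries 214 of 12865 genes passed (1.66%), and 0 of them were members.

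**Figure D2:**
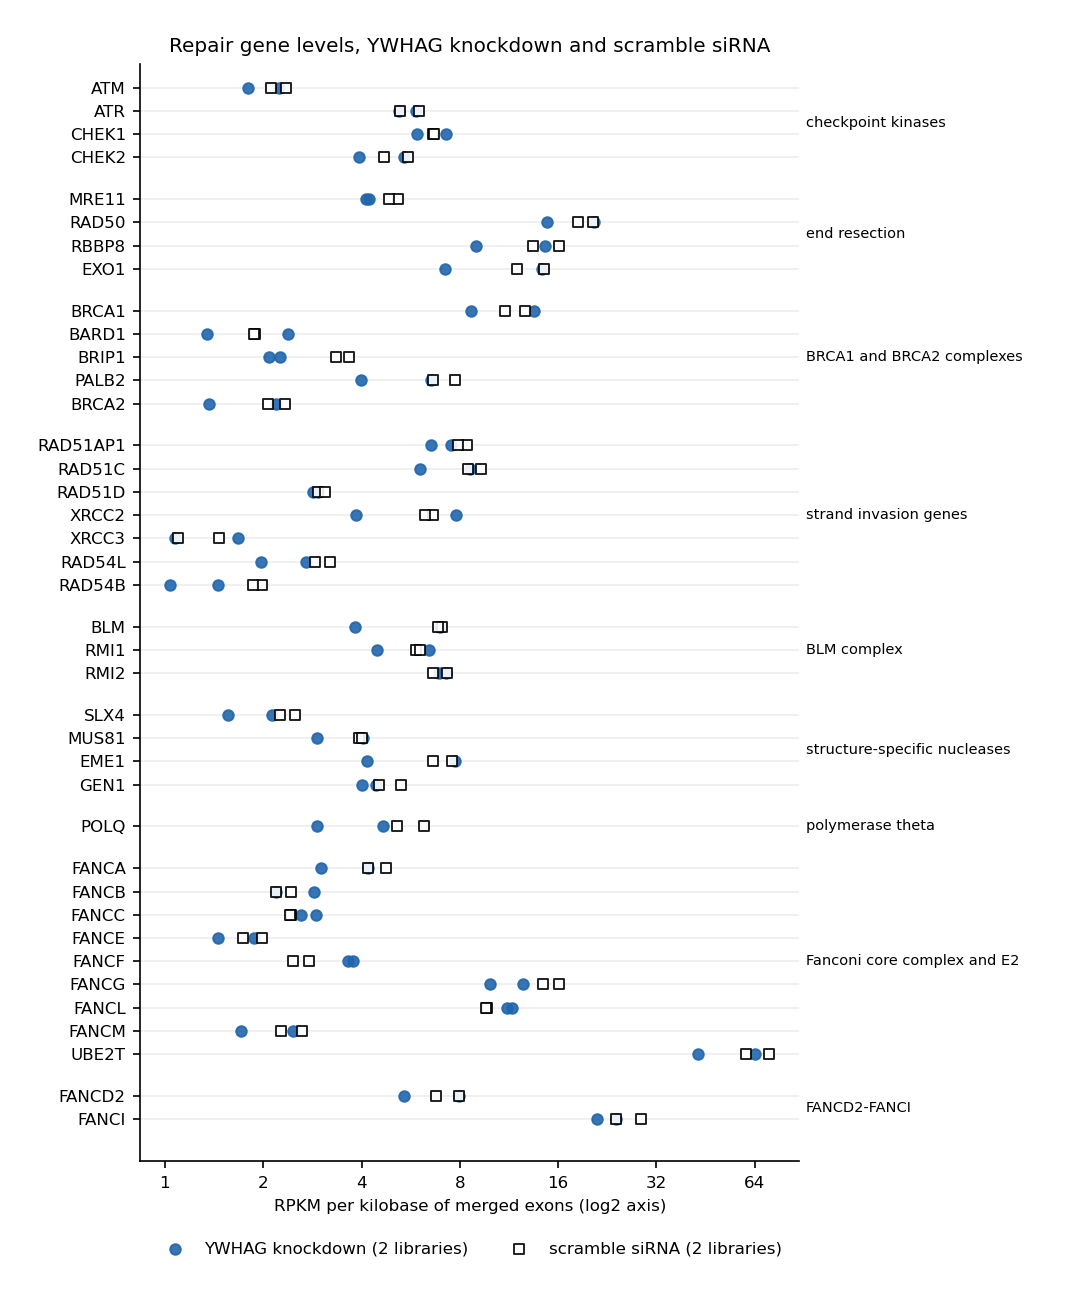
RPKM per kilobase of merged exons (log2 axis) of the 39 repair genes, by role, in the 2 YWHAG knockdown libraries (filled circles) and the 2 scramble siRNA libraries (open squares). Both knockdown points lie left of both control points for 13 genes and right of them for FANCC, FANCF and FANCL; in the other rows the groups overlap.

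BRIP1 had 2.08 and 2.25 RPKM in the YWHAG knockdown libraries, against 3.67 and 3.33 RPKM in scramble siRNA. Both knockdown libraries were low and alike, with a log2 change of −0.51 ± 0.13 (limma adjusted p = 0.236). RAD54B, a translocase related to RAD54L, had 1.04 and 1.46 RPKM, against 1.98 and 1.86 RPKM, a log2 change of −0.39 ± 0.15 (limma adjusted p = 0.298). POLQ had 2.93 and 4.65 RPKM, against 6.21 and 5.14 RPKM. FANCG had 9.91 and 12.5 RPKM, against 16.1 and 14.4 RPKM. In POLQ and FANCG both knockdown libraries were below the controls and library 1 was the lower, with changes of −0.50 ± 0.22 and −0.42 ± 0.16.

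For 3 of the members with large changes after LY6K-AS knockdown, picked after their values were seen, the YWHAG knockdown libraries parted. EXO1 had 7.21 and 14.3 RPKM in the YWHAG knockdown libraries, against 14.5 and 12.0 RPKM in scramble siRNA. UBE2T had 42.8 and 64.0 RPKM, against 70.9 and 60.3 RPKM. XRCC2 had 3.85 and 7.76 RPKM, against 6.61 and 6.25 RPKM. In each of the 3, library 1 was below both controls and library 2 was not. The same held for BRCA1, BLM, EME1 and FANCD2, whose log2 changes after LY6K-AS knockdown were −0.91, −0.88, −0.82 and −0.80. Not every member with a large change after LY6K-AS knockdown shared this pattern. RAD51AP1, POLQ and FANCI lay below both controls in both YWHAG knockdown libraries. Over the 39 members the median absolute difference between the YWHAG knockdown libraries was 0.355 on the log2 scale, against 0.123 between the scramble siRNA libraries. The same difference was 0.178 between the LY6K-AS knockdown libraries, against 0.0465 between the scramble LNA libraries. Over all genes tested it was 0.2284 between the YWHAG knockdown libraries and 0.1067 between their controls. For the LY6K-AS knockdown libraries and their controls the all-gene values were 0.2145 and 0.0606, both above those of the members. Proliferation markers parted likewise after YWHAG knockdown, with medians of −0.44 in library 1 and −0.17 in library 2. In the mean 16 of 17 were lower, where 57.6% of all genes tested were. The smallest p were those of CCNE2 (−0.73 ± 0.12), MCM6 (−0.54 ± 0.13) and E2F1 (−0.78 ± 0.20), with limma adjusted p of 0.179, 0.234 and 0.235. The part of proliferation markers in the members' levels was not tested.

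**Figure D3:**
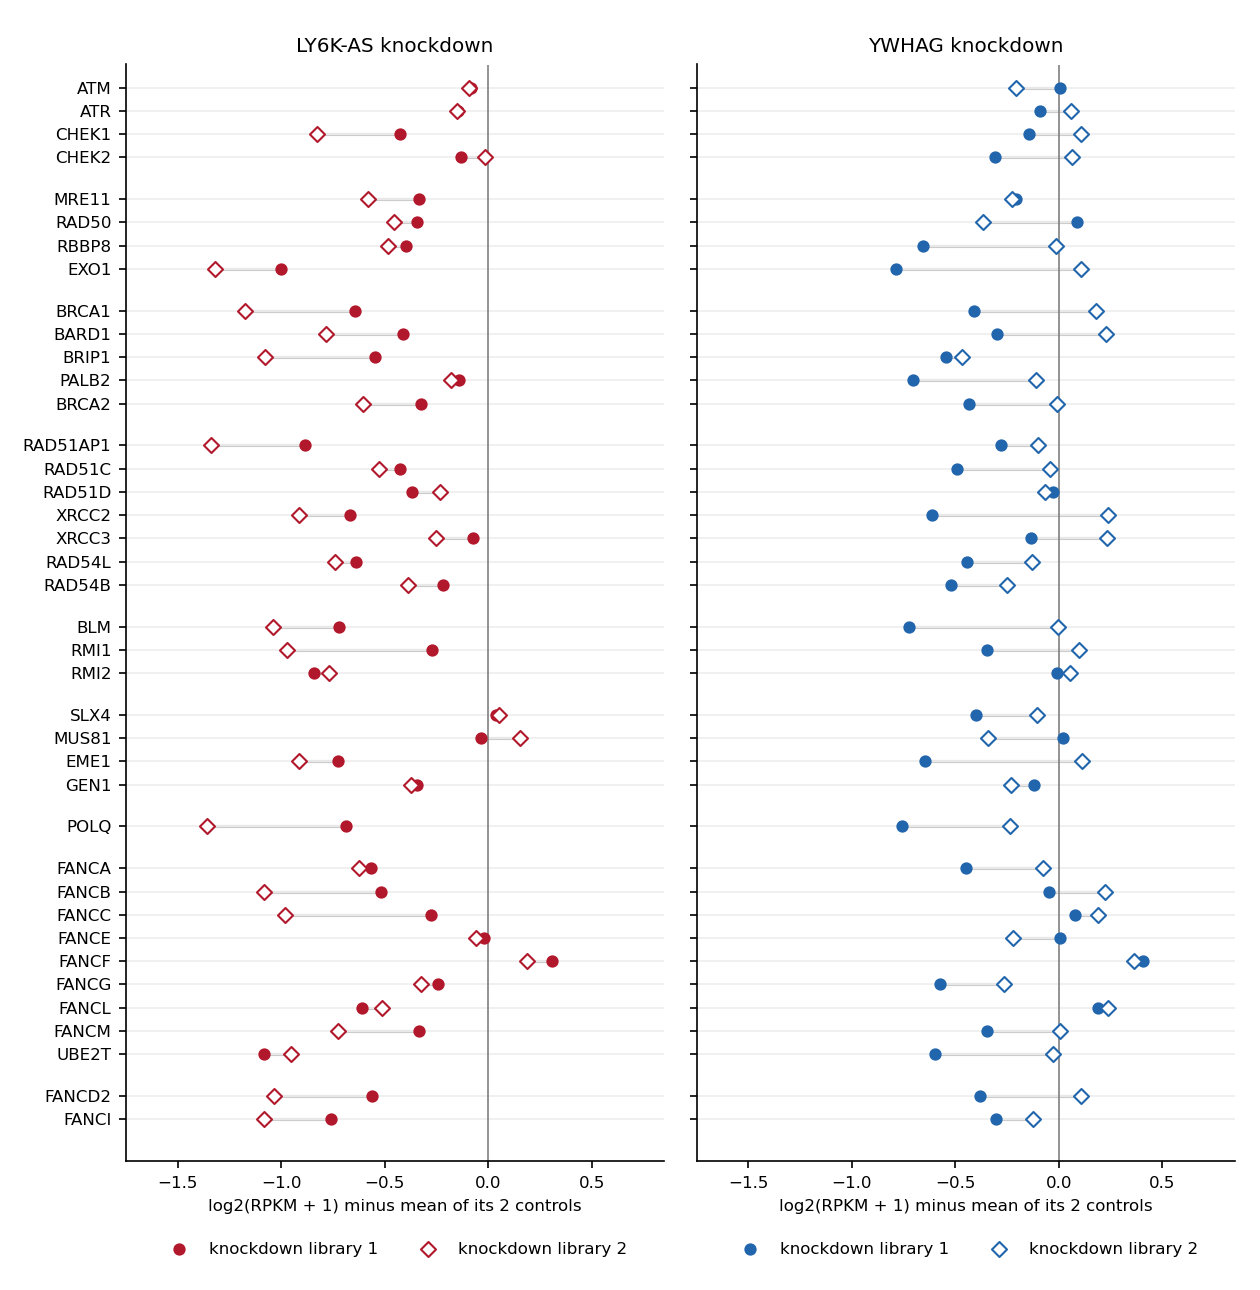
Difference of log2(RPKM + 1) from the mean of the 2 controls for each of the 39 repair genes, in knockdown library 1 (filled circles) and library 2 (open diamonds), after LY6K-AS knockdown (left) and YWHAG knockdown (right). After LY6K-AS knockdown both libraries lie left of 0 for most genes and library 2 is the lower for 32; after YWHAG knockdown library 1 is the lower for 31 and many of the library 2 values lie near 0.

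Some 3 Fanconi genes, FANCF, FANCL and FANCC, were higher in both YWHAG knockdown libraries than in both controls, as were 20.4% of all genes tested. FANCF had 3.77 and 3.63 RPKM in the YWHAG knockdown libraries, against 2.46 and 2.75 RPKM in scramble siRNA, a log2 change of 0.38 ± 0.13 (limma adjusted p = 0.272). FANCL had 11.1 and 11.6 RPKM, against 9.71 and 9.62 RPKM, and FANCC had 2.61 and 2.90 RPKM, against 2.43 and 2.41 RPKM. FANCF was thus the 1 member above its controls in both knockdowns, while FANCL and FANCC were above them after YWHAG knockdown and below them after LY6K-AS knockdown. RMI2, with 6.91 and 7.24 RPKM against 6.60 and 7.32 RPKM in scramble siRNA, overlapped its controls.

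The difference between the 2 knockdown effects was tested directly, over the 12865 genes that passed the filter in both tables. The LY6K-AS effect minus the YWHAG effect was negative for 31 members, where 45.7% of all genes tested had a negative difference, and its median was −0.33 over the members and 0.04 over all genes. At the adjusted limma threshold 23 genes passed (0.179%), none of them members. At an unadjusted p under 0.05, 9 members had a negative difference, against 8.88% of all genes, and 0 had a positive one, against 11.6%. With values as deposited, where 23 members passed the filter, 0 members had a negative difference at that p, beside 693 of all 8934 genes then tested, and 43 genes passed the adjusted threshold. Those 9 members were CHEK1, BRCA1, RAD51AP1, RMI2, FANCB, FANCC, FANCL, UBE2T and FANCI, so 5 of them belong to the Fanconi pathway. The smallest p among members was that of RMI2, with a difference of −0.83 ± 0.16 (SE; limma adjusted p = 0.0754), followed by FANCL with −0.77 ± 0.15 (limma adjusted p = 0.0757). RAD51AP1 had the lowest difference, −0.92 ± 0.24 (limma adjusted p = 0.117). Here too single libraries weighed on the counts. The 23 genes became 0 without either scramble LNA library, either scramble siRNA library or LY6K-AS knockdown library 2, 1177 without LY6K-AS knockdown library 1, and 720 and 735 without YWHAG knockdown libraries 1 and 2. The 9 members at an unadjusted p under 0.05 became 4 without scramble siRNA library 3 (5.69% of all genes), 5 without scramble siRNA library 2 (6.05%) and 5 without scramble LNA library 1 or 2 (4.83% and 4.93%). They became 15 without LY6K-AS knockdown library 1 (13.7%) and 18 without YWHAG knockdown library 1 (12.4%). At the adjusted threshold 5 members passed without LY6K-AS knockdown library 1 (9.15% of all genes), 6 without YWHAG knockdown library 1 (5.6%) and 2 without YWHAG knockdown library 2 (5.71%).

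**Figure D4:**
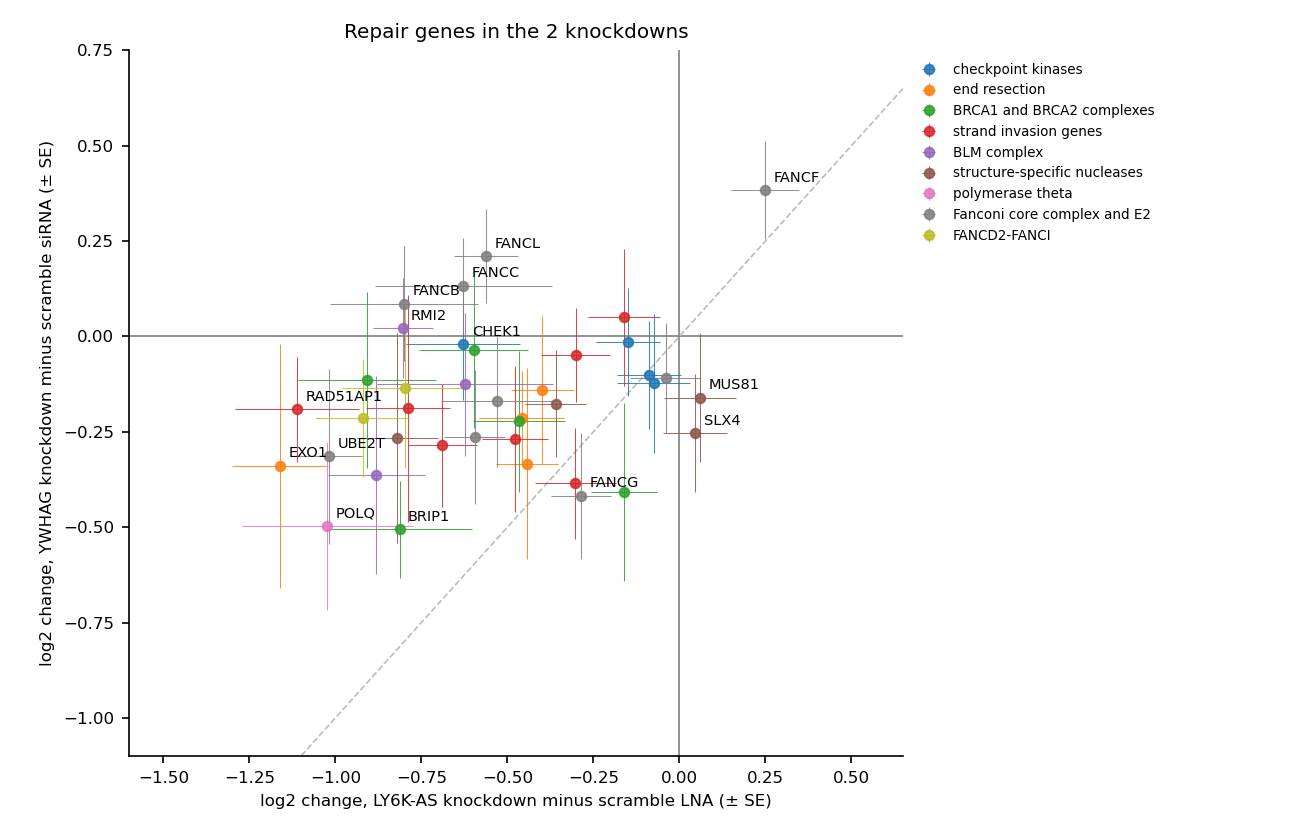
Mean log2 change ± SE of the 39 repair genes, coloured by role, after LY6K-AS knockdown against scramble LNA (horizontal axis) and after YWHAG knockdown against scramble siRNA (vertical axis), with equality of the 2 changes drawn as a dashed line. Points above the dashed line have a lower log2 change after LY6K-AS knockdown than after YWHAG knockdown, which holds for 31 genes. FANCF, 1 of these, lies in the upper right with a positive change in both, and FANCL and FANCC lie left of 0 and above it.

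Other repair genes, listed by function, place the members among their neighbours. After LY6K-AS knockdown, of 45 tested genes of recombination and Fanconi repair outside the members, 33 were lower and 12 higher in the mean, where 49.7% of all genes tested were lower, and the median log2 change was −0.17. At an unadjusted limma p under 0.05, 19 were lower, against 11.7% of all genes, and 3 were higher, against 13.6%. RPA3, a subunit of the single-strand binding protein that coats resected DNA, had 5.19 and 5.98 RPKM in the LY6K-AS knockdown libraries, against 9.87 and 9.84 RPKM in scramble LNA. RPA2, a second subunit, had 14.0 and 15.0 RPKM, against 22.2 and 21.8 RPKM. EME2, the other partner of MUS81, went the opposite way with 11.8 and 12.2 RPKM, against 6.81 and 7.14 RPKM, a log2 change of 0.70 ± 0.09 (limma adjusted p = 0.103). The 2 alternative partners of MUS81 thus stood on opposite sides of their controls, EME1 below and EME2 above; with the GC trend removed EME1 was at −0.80 and EME2 at 0.32. Of 9 non-homologous end joining genes 6 were lower (median −0.14), among them XRCC5, the large Ku subunit, with a log2 change of −0.62 ± 0.10 and PRKDC, the DNA-dependent protein kinase, with −0.41 ± 0.09, while the polymerase POLL was higher by 0.56 ± 0.13. Of 29 mismatch and excision repair genes 18 were lower (median −0.05), with the uracil glycosylase UNG at −0.59 ± 0.09 and the glycosylase MPG and the damage sensor XPC at 0.56 ± 0.08 and 0.74 ± 0.15. With the GC trend removed POLL was at 0.35 and MPG at 0.20. None of these genes passed at the adjusted threshold.

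**Figure D5:**
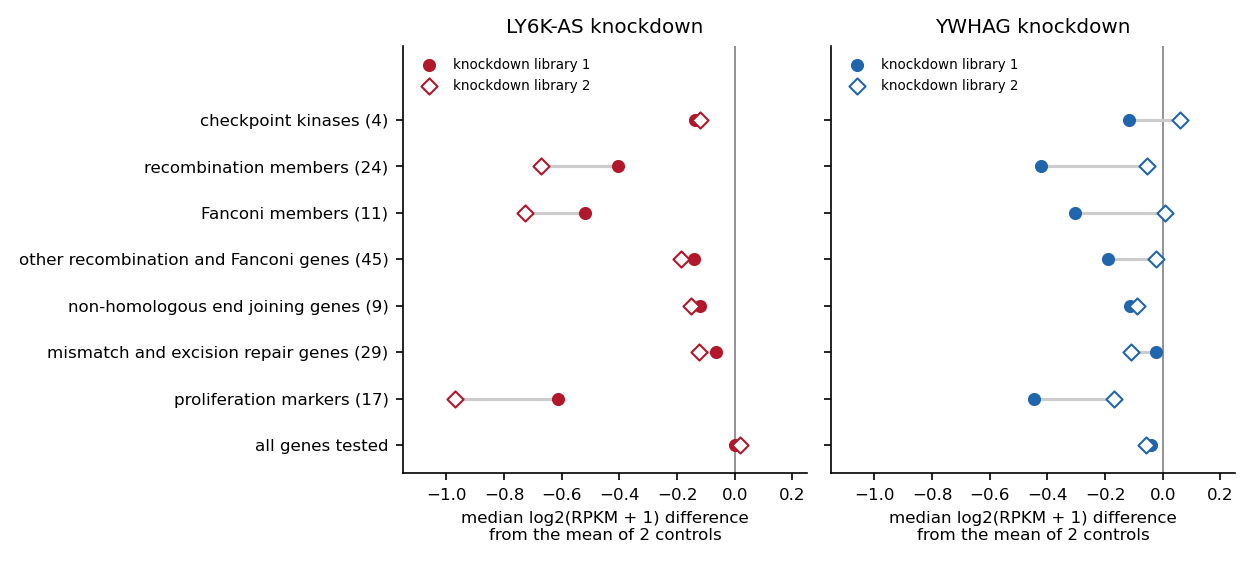
Median difference of log2(RPKM + 1) from the mean of the 2 controls over each list of genes, in knockdown library 1 (filled circles) and library 2 (open diamonds), after LY6K-AS knockdown (left) and YWHAG knockdown (right); the number of genes tested after LY6K-AS knockdown stands in parentheses. Recombination members, Fanconi members and proliferation markers lie farthest left after LY6K-AS knockdown, and the other repair lists lie between −0.19 and −0.07.

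After YWHAG knockdown, 31 of 45 other recombination and Fanconi genes were lower in the mean, where 57.6% of all genes tested were lower. At an unadjusted limma p under 0.05, 5 were lower, against 8.9% of all genes, and 2 were higher, against 7.51%, so these counts lay near the background. NBN, which joins MRE11 and RAD50 in the end-binding complex, had 14.9 and 15.3 RPKM in the YWHAG knockdown libraries, against 5.68 and 5.48 RPKM in scramble siRNA, a 2.71-fold higher mean. MRE11 had 4.21 and 4.14 RPKM, against 5.16 and 4.85 RPKM, and RAD50 had 20.6 and 14.8 RPKM, against 20.4 and 18.4 RPKM. NBN was therefore high in both knockdown libraries while neither of its partners was. The log2 change of NBN was 1.29 ± 0.12 (limma adjusted p = 0.130, and 0.0147 in the fit over all 8 libraries). After LY6K-AS knockdown NBN was lower, at 9.57 and 7.11 RPKM, against 11.5 and 11.6 RPKM in scramble LNA. The difference between the LY6K-AS and YWHAG effects, −1.73 ± 0.20, passed the threshold (limma adjusted p = 0.0491), and NBN was the 1 gene of these other repair lists to do so. That call was lost without a filter on low values (limma adjusted p = 0.105), with scaling to reads outside mitochondrial genes (0.0519) and without either scramble LNA library, either scramble siRNA library or LY6K-AS knockdown library 2. RNF168, a ubiquitin ligase at double-strand breaks, was at 2.14 and 2.82 RPKM in the YWHAG knockdown libraries, against 4.24 and 4.28 RPKM in scramble siRNA. BRCC3, a deubiquitinase that works with BRCA1, averaged 22.1 ± 2.93 RPKM, against 14.4 ± 0.673 RPKM (SD, n = 2 each). Neither overlapped its controls, RNF168 being lower and BRCC3 higher, with log2 changes of −0.60 ± 0.15 and 0.58 ± 0.15 (limma adjusted p = 0.235 and 0.243). Over 9 end joining genes the median was −0.16 and over 30 mismatch and excision repair genes −0.09 after YWHAG knockdown, with 0 and 3 genes lower at an unadjusted p under 0.05, near the share of 8.9% of all genes. Log2 changes of the 3 with the smallest p were −0.33 for XRCC5, −0.29 for the polymerase POLM and −0.17 for the nuclease gene DCLRE1C among end joining genes. Among mismatch and excision repair genes they were −0.60 for UNG, −0.45 for MLH3 and −0.37 for ERCC6.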

How the data were processed

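Values were 2 tables of RPKM deposited by the authors, 1 for the LNA libraries and 1 for the siRNA libraries, normalized separately, so levels were not compared between them. Per the submitters' processing notes, STAR, Subread, featureCounts and Picard were used with build hg38; versions and parameters are not given in the sources used here. Identifiers were matched to GENCODE release 29 (57055 of 66206, 52238 with the same version). The divisor was found from the values of same-version genes: RPKM times length gave whole reads, within 0.05 reads, for 100% of values under 1000 reads with genomic span (end minus start) in the LNA table, and in the siRNA table with the length of merged exons. LNA values were therefore rescaled to merged exon length. For genes of another version the length that made every value a whole read was used where one was found and the GENCODE length otherwise, and all 39 members gave whole reads in both tables. It is not stated whether counting in the LNA libraries covered exons or the whole span. The 9151 unmatched rows were left out of the LNA tests.

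With R 4.3.3, limma 3.58.1 (intensity trend on) was run on log2(RPKM + 1), two-sided, per table, over genes with at least 0.5 RPKM in 2 of 4 libraries, with 2 residual degrees of freedom, and over all 8 libraries for the difference between effects, with 4. The fits were also run on simulated data with the same spread in both groups. In the real data the knockdown pairs spread more than the control pairs, so that run does not show how the fits perform here. Alternatives changed the scaling, the pseudocount, the filter, the tool, the samples in the fit and the lengths. The scramble siRNA columns, numbered 2 and 3 in the table, were assigned to the group only. The genes named were all members, both targets, and the 3 measured genes with the smallest p of each other list in each comparison; KRT18, NKX2-1, SFTPB, SFTPC, CD3E, and NBN after LY6K-AS knockdown, were named beside them after their values were seen. EXO1, UBE2T and XRCC2 after YWHAG knockdown, and EME1 beside EME2, were picked for closer description after their values were seen. Members and lists were chosen with earlier results of these data known. Promoter windows came from RefSeq (GRCh38.p14).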

Additional observations from a re-analysis of the deposited data

Results flagged for a closer look

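FANCL and FANCC lay below both controls in both LY6K-AS knockdown libraries and above both controls in both YWHAG knockdown libraries. Of all genes tested, 30.5% lay below both controls after LY6K-AS knockdown and 20.4% lay above both after YWHAG knockdown. The share of genes that did both was not counted, so the pattern is a description of these genes only. The LY6K-AS effect minus the YWHAG effect was −0.77 for FANCL (limma adjusted p = 0.0757) and −0.76 for FANCC (limma adjusted p = 0.221), so neither difference passed when tested. FANCC overlaps antisense transcripts and FANCL overlaps VRK2 on the opposite strand, and whether reads of those genes were counted with them was not tested.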

How the results depend on the processing

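With 2 libraries per group, each comparison had few degrees of freedom, and the knockdown pairs spread more than the control pairs. The SD over genes of the log2 difference between the libraries of a pair was 0.40 against 0.16 for LY6K-AS. For YWHAG it was 0.43 against 0.20. These limits bear on every adjusted p. The direction of the LY6K-AS median held in all 17 alternatives: it was −0.27 with values as deposited, where 23 members passed the filter and 16 were lower at an unadjusted p under 0.05, −0.74 with a pseudocount of 0.1 and −0.76 with voom on recovered reads. Values as deposited moved 13 of 23 members by over 1.5 times, EXO1 to −0.49, RAD51AP1 to −0.53 and BRCA1 to −0.38. Leaving out 1 library gave medians from −0.62 to −0.40, 13 to 31 members lower at that p, 0 to 31 members past the adjusted threshold and 0 to 7734 genes. The fit over all 8 libraries gave 64 genes and 2 members for LY6K-AS and 214 genes for YWHAG. With the GC trend removed the sign reversed for ATM (0.090), ATR (0.030), CHEK2 (0.032), SLX4 (−0.043) and MUS81 (−0.17) after LY6K-AS knockdown and for RAD51D (0.022) after YWHAG knockdown. Leaving out 1 library, MUS81 ranged from −0.034 to 0.15 and FANCE from −0.12 to 0.035. After YWHAG knockdown the members lower at an unadjusted p under 0.05 numbered 1 with median ratio scaling, with scaling to reads outside mitochondrial genes or without a filter, and 0 to 19 with 1 library left out. For the difference between effects, 43 genes passed with values as deposited and 43 with voom, 5 with scaling to reads outside mitochondrial genes and 5 without a filter, and 0 to 1177 with 1 library left out; members past the threshold ranged from 0 to 6 and those negative at an unadjusted p from 4 to 18, with 0 at values as deposited. The cause of these shifts was not tested. Lengths taken from GENCODE 29 throughout, an alternative added after seeing the data, left the LY6K-AS median at −0.56.

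The difference between libraries 1 and 2 was only weakly correlated between scramble LNA and LY6K-AS knockdown (Pearson r = 0.079 over 14663 genes). The knockdown titles hold LNA1 and LNA3, which may be different oligonucleotides. The check therefore cannot decide whether the replicate numbers pair the LNA libraries. With the replicate block the median stayed at −0.56 and 0 members passed the threshold. At an unadjusted limma p under 0.05, 27 members were then lower, beside 1462 of all 14663 genes. No paired analysis was possible for the siRNA table or the difference because the control columns do not carry the numbers of the labels.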
